A study of Homo sapiens with 6 samples.

Results

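TADs called in LNCaP cells treated with CTCF siRNA that lie inside a larger TAD of control cells, and so divide it into parts, were described here. They were chosen by the TAD calls of both conditions. A CTCF siRNA TAD was taken where it lay, with 40 kb of tolerance at each edge, within a control TAD that held at least 2 such TADs. On the 22 autosomes, 308 of 2308 CTCF siRNA TADs met this rule (13.3%, 95% Wilson interval 12.0 to 14.8), and they divided 145 of 2763 control TADs (5.25%, interval 4.48 to 6.14). LNCaP is an established line of androgen-sensitive prostate cancer cells. The cells received a Non-Target siRNA pool (control) or a CTCF siRNA pool, each at 20 nM, were transfected again after 72 h, and were taken for Hi-C at 144 h. Hi-C is a genome-wide count of which stretches of DNA lie close enough together to be ligated. There were 2 control libraries, and 4 CTCF siRNA libraries labelled Rep1, Rep2, Rep1.1 and Rep2.1, whose relation to each other the labels do not state. The authors pooled the libraries of each condition into 1 contact map and 1 TAD list, so no difference between conditions below has a replicate check, and intervals cover counting error or the spread over regions only. The knockdown lowers CTCF rather than removing it, and the level of CTCF is not measured by these files.

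A TAD, or topologically associating domain, is a stretch of chromosome whose parts contact each other more often than they contact the sequence beyond its edges. CTCF is a zinc finger protein that binds a directional DNA motif. In the loop extrusion model, cohesin reels in chromatin until it meets CTCF bound in the facing direction, which is why many TAD edges carry CTCF. Edges without CTCF are also known, and many lie at the promoters of active genes. Loss of CTCF is best known for weakening edges and joining neighbouring TADs, so a control TAD that is cut into smaller ones is the opposite change in the lists.

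The control TAD with the most parts lay on chromosome 19, at chr19:49100001-50620000 (hg19, as are all coordinates here), and held 4 CTCF siRNA TADs of 440, 440, 440 and 200 kb. It is shown first because its inner boundaries, the places where neighbouring parts meet, hold both features followed below, CTCF motifs and gene starts. The 7 matches to the degenerate core of the CTCF motif within 1 bin of 40 kb of its 3 inner boundaries are printed 5′ to 3′ on the strand of the match, with the core in capitals and 20 bases of GRCh37 sequence on each side.
chr19:49490580-49490631 (forward strand): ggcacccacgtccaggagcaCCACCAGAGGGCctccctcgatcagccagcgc
chr19:49577375-49577426 (reverse strand): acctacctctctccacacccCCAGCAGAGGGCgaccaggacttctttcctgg
chr19:49578270-49578321 (forward strand): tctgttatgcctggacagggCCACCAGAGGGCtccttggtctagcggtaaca
chr19:49947154-49947205 (reverse strand): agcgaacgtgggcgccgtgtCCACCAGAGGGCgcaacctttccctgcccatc
chr19:49977387-49977438 (forward strand): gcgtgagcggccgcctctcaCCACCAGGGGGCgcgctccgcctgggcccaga
chr19:50420217-50420268 (reverse strand): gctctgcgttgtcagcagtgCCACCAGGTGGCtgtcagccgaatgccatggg
chr19:50441439-50441490 (reverse strand): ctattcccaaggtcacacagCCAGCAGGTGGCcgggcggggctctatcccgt
The match in the printed stretch that starts at position 49490580 lies in a coding exon of GYS1, the muscle glycogen synthase. The match in the stretch from 50420217 lies in introns of IL4I1 and NUP62 as annotated. Those in the stretches from 49977387 and 50441439 lie in introns of unnamed protein-coding genes, and the other 3 lie outside protein-coding genes. A match is a stretch of letters and does not show that CTCF was bound there. This TAD is rich in matches throughout, with 12.8 per Mb against a median of 4.69 in all divided control TADs. Over all inner boundaries the mean was 0.80 matches per window of 3 bins, so the 7 matches are not typical.

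The TADs that divided a control TAD were short. Their median size was 440 kb (95% interval 400 to 480, range 160 to 2200, n = 308), against 880 kb (840 to 920) for the other 2000 CTCF siRNA TADs, and 46.1% against 14.2% were at most 400 kb. The shortest size of 160 kb was shared by 13 of them, and the longest, at chr1:28940001-31140000, held 10 protein-coding gene starts. The divided control TADs were long, with a median of 1160 kb (1080 to 1280, range 480 to 4440, n = 145) against 720 kb (680 to 720) for the others. These sizes follow from the rule and are given as a description.

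**Figure D1:**
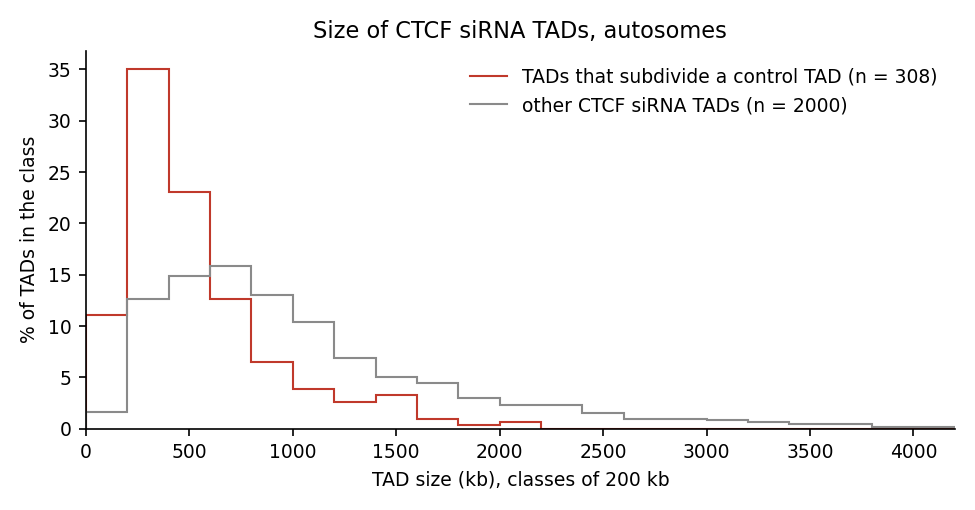
Sizes of CTCF siRNA TADs on the autosomes in classes of 200 kb (horizontal axis, kb) as a percentage of each group (vertical axis): red, the 308 that divide a control TAD; grey, the other 2000, of which 23 are longer than the 4200 kb shown. The red group has a median of 440 kb and the grey group 880 kb.

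Most divisions were simple. Of the 145 control TADs, 128 held 2 parts, 16 held 3 and 1 held 4. The parts covered a median of 97.4% of the control TAD (95.2 to 100), and in 106 cases both outer edges of the control TAD lay within 40 kb of a part's edge. The cut was usually uneven, since the smaller of 2 parts made up a median of 33.3% of both (31.1 to 36.8, n = 128). Of the 163 pairs of neighbouring parts, 130 touched, 19 were up to 100 kb apart and 14 were farther apart. At the limit of the rule, 37 members reached past the control edge by 40 kb (median size 520 kb), and 36 further TADs (median 480 kb) would enter with 80 kb.

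Some members lie where the maps hold no contacts. Neither map holds contacts below 9.4 Mb on any chromosome, and 121 further bin positions up to 48.12 Mb hold none, so that 41 of the 308 members (13.3%) had no contacts at all, against 190 of all 2308 CTCF siRNA TADs (8.23%). The TAD lists cover these stretches. Contacts could therefore be measured for 139 of the 163 pairs, and 18 of the other 24 lay below that position. The share of control TADs divided was close for TADs centred between 9.4 and 48.12 Mb (42 of 805, 5.22%, interval 3.88 to 6.98) and elsewhere (103 of 1958, 5.26%, 4.36 to 6.34).

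Divided control TADs were gene-dense. They held a median of 10.8 protein-coding gene starts per Mb (8.93 to 12.0, n = 145), against 5.36 (5.00 to 5.65, n = 2618) in undivided control TADs. Control TADs with both edges kept in the CTCF siRNA list were between these, at 7.14 (6.25 to 7.95, n = 569), and those merged into a larger CTCF siRNA TAD were lowest of the classes compared, at 4.04 (3.57 to 4.55, n = 864). No divided TAD lacked a protein-coding gene start, whereas 161 of 2618 undivided ones did (6.15%). This count was not matched for length. Divided TADs measured at least 480 kb and undivided ones at least 160 kb, and a longer TAD more easily holds a gene start. In all, the divided TADs held 2190 of the 16836 protein-coding genes that start in a control TAD (13.0%) in 7.59% of the length of all control TADs. The median in divided TADs was the higher on 20 of 22 autosomes. The exceptions were chromosome 10 (lower by 1.44 genes per Mb over 6 divided TADs, as -1.44) and chromosome 21 (-8.00, 3 divided TADs).

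They were also GC-rich, which moves with gene density. The median GC content was 44% (43.4 to 45.2) in divided and 40.9% (40.6 to 41.1) in undivided control TADs, and 44.6% (43.9 to 45.4) in the parts themselves. From the lowest to the highest quintile of GC content the share of control TADs divided went from 1.08% (6 of 553) through 1.99, 5.61 and 7.79% to 9.76% (54 of 553). Over the quintiles of size it went from 0 of 639, which allows up to 0.598% by the Wilson interval, through 2.37, 4.47 and 9.68% to 10.9% (58 of 533). The trend over size follows in part from the rule. A divided TAD must hold at least 2 CTCF siRNA TADs, of which the shortest measured 160 kb, so short control TADs can hardly qualify. Long TADs of high GC content were divided most often of the groups compared. In the 2 upper size quintiles, 33 of 105 TADs of the top GC quintile were divided (31.4%, interval 23.3 to 40.8), against 6 of 332 of the bottom GC quintile (1.81%, 0.831 to 3.89).

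**Figure D2:**
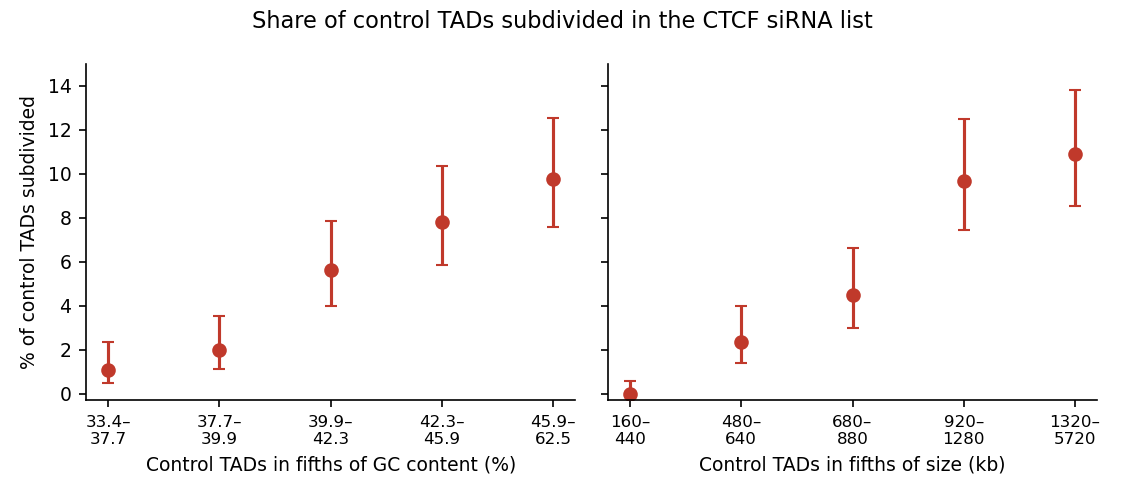
Percentage of control TADs divided in the CTCF siRNA list (vertical axis) in quintiles of GC content (left, %) and of size (right, kb), with 95% Wilson intervals as bars; labels under the points give the range of each quintile. The share goes from 1.08 to 9.76% over GC content and from 0 to 10.9% over size, where the rise follows in part from the rule.

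Compared at like GC content, the gap in gene density was smaller. In the top GC quintile divided TADs held a median of 19.6 gene starts per Mb (15.3 to 27.3, n = 54) and undivided ones 15 (14.2 to 16.7, n = 499), and the intervals overlap. In the quintile below, the values were 10.3 (7.14 to 11.7) and 7.69 (6.94 to 8.82). Size was not matched in these 2 quintiles. Divided TADs were longer, with medians of 960 against 520 kb in the top quintile and 1160 against 640 kb in the one below. At like size the intervals did not overlap. From the middle to the top size quintile the medians were 14.7 against 5.62, 12.1 against 3.91, and 5.38 (4.44 to 6.82, n = 58) against 1.70 (1.43 to 2.0, n = 475).

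Other sequence features and the depth of the maps differed too. Divided TADs held fewer sites of BglII, the enzyme used to cut the chromatin (248 per Mb against 274), and more CTCF core matches (4.69 per Mb, 4.17 to 5.36, against 3.12, 3.12 to 3.26, in undivided ones). In the top GC quintile BglII sites came to 211 per Mb (200 to 221) in divided against 221 (217 to 225) in undivided TADs, and the intervals overlap. The CTCF core density in that quintile was 7.95 per Mb (7.14 to 9.38) against 7.14 (6.67 to 7.5), and these intervals overlap too. Contacts per bin went with GC content in the CTCF siRNA map alone: over the GC quintiles of control TADs the median lay between 366 and 403.5 in the control map, and went from 909 to 2548 in the CTCF siRNA map. In divided TADs the CTCF siRNA map held a median of 5.42 times as many contacts per bin as the control map (4.85 to 5.73, n = 123 with contacts), against 3.98 (3.86 to 4.11, n = 2380) in undivided ones. Within the top GC quintile this ratio was not higher in divided TADs, at 6.22 (5.98 to 6.35, n = 44) against 6.47 (6.40 to 6.52, n = 412). The maps hold 13665314 and 56304227 contacts within chromosomes in the control and CTCF siRNA cells, so the CTCF siRNA list was also called at greater depth. The part of depth and of GC-linked coverage in which TADs were divided was not tested, and in these pooled data it cannot be told apart from the siRNA.

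Among the autosomes the share divided was highest on chromosome 22 (7 of 36, 19.4%, interval 9.75 to 35.0) and chromosome 19 (8 of 56, 14.3%, 7.42 to 25.7), both short and gene-rich. It was lowest on chromosome 4 (2 of 173, 1.16%, 0.318 to 4.12). The interval of chromosome 4 does not reach those of chromosomes 19 and 22, and those of the last 2 overlap. Across the 22 autosomes, which are not replicates, the share went with GC content at Pearson's r = 0.71 (Spearman's rho 0.37), and r was 0.21 without the 2 autosomes whose GC content was farthest from the median, so it rests on those. For gene density r was 0.60 (rho 0.37), and 0.52 (rho 0.22) without the 2 autosomes farthest from the median gene density. Those were chromosomes 17 and 19, whereas for GC content they were chromosomes 19 and 22. Chromosome 22, with the highest share, therefore stays in the value for gene density, and the 2 reduced values are not comparable.

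Genes that every cell needs were found in divided TADs at shares whose intervals hold that of genes in general. Of 16836 protein-coding genes that start in a control TAD, 2190 start in a divided one (13.0%, 12.5 to 13.5). For subunits of NADH dehydrogenase, the entry complex of the respiratory chain, the count was 8 of 34 (23.5%, 12.4 to 40). It was 9 of 44 for proteasome subunits (20.5%, 11.2 to 34.5), 12 of 64 for cytosolic ribosomal proteins (18.8%, 11.1 to 30) and 10 of 68 for mitochondrial ribosomal proteins (14.7%, 8.19 to 25). Solute carriers, the membrane transporters, came to 51 of 335 (15.2%, 11.8 to 19.5). Each of these intervals holds the share over all genes. Zinc finger genes named ZNF, many of which sit in clusters on chromosome 19, came to 22 of 384 (5.73%, 3.81 to 8.52), below the share over all genes. Those 22 lay in 16 TADs. Genes that share a TAD are not independent, so this interval may be too narrow.

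Gene starts were concentrated where the parts met. A window of 3 bins (120 kb) around an inner boundary with a gap of up to 100 kb held a protein-coding gene start in 128 of 149 cases (85.9%, interval 79.4 to 90.6), against 1745 of 3390 windows that lay within the parts (51.5%, 49.8 to 53.2) and 42.1% of all autosomal windows. Windows within the parts overlap their neighbours, so the interval of their share is too narrow. The mean number of gene starts was 2.79 per window at inner boundaries and 1.1 within the parts. GC content hardly differed between them, at a median of 43.4% (42.6 to 45.0) and 43.0% (42.8 to 43.2). Outer edges of the divided TADs were alike in this, with a gene start in 228 of 270 windows (84.4%, 79.6 to 88.3). The windows at inner boundaries made up 9.45% of the length of the divided TADs and held 415 of their 2190 genes (18.9%).

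The genes at the inner boundaries included 4 of the 12 cytosolic ribosomal protein genes in divided TADs, RPL13A and RPL32 among them. They included 4 of 10 for mitochondrial ribosomal proteins (MRPL3, MRPL37, MRPL40 and MRPL57), 4 of 8 NADH dehydrogenase subunits (NDUFA3, NDUFA6, NDUFB6 and NDUFS7) and 3 of 9 proteasome subunits (PSMA4, PSMD1 and PSMD8). For solute carriers it was 6 of 51, and for ZNF genes 4 of 22. Histone (0 of 12), HOX (0 of 8) and olfactory receptor genes (0 of 6) had none there. Over all genes in divided TADs the share was 18.9%. These are small counts over lists chosen with results known, and no list is called particular from them.

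CTCF core matches were less concentrated there than gene starts. A match lay in 71 of 149 windows at inner boundaries (47.7%, 39.8 to 55.6), in 38.0% of windows within the parts (36.4 to 39.6) and in 33.8% of all autosomal windows. Windows within the parts overlap each other, so their interval is too narrow, and its small distance from that of inner boundaries is not read as a difference. At the outer edges of the same TADs a match lay in 162 of 270 windows (60%, 54.1 to 65.7). At edges of control TADs kept in both lists the share was 57.4% (54.2 to 60.5, n = 969). By single bins, 20.8% of boundary bins and 24.2% of the next bins held a match at inner boundaries, which is within the range of 13.5 to 25.5% found over 600 kb on either side. A gene start was found in 54.4% of boundary bins and 55.0% of the next, and in at most 47.0% of the other bins.

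**Figure D3:**
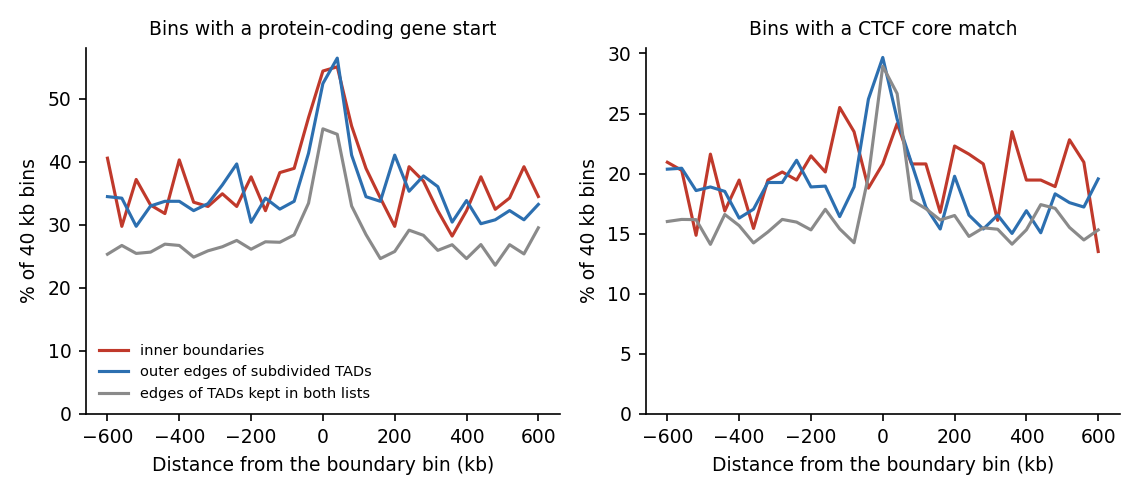
Percentage of 40 kb bins that hold a protein-coding gene start (left) or a CTCF core match (right) by distance from the boundary bin (kb): red, 149 inner boundaries; blue, outer edges of divided control TADs; grey, edges of control TADs kept in both lists. Gene starts peak at all 3 kinds of boundary (54.4% of bins at inner ones), and core matches peak at the outer and the kept edges but stay at 20.8% at the inner ones.

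In the control map, most pairs of parts already contacted each other less than they contacted themselves. As TADs were called from contacts, these values are a description and carry no test. For each pair of neighbouring parts, contacts between them were summed and divided by those expected from the same chromosome at the same distances (observed over expected, O/E). The same was done within the parts. A log2 ratio of between to within that is below 0 means that the parts contact each other less than they contact themselves. Over the 139 pairs its median was -0.33 (95% interval -0.45 to -0.24) in control cells and -0.44 (-0.55 to -0.33) after CTCF siRNA. It was below 0 in control cells for 100 of 139 pairs (71.9%, 64 to 78.7), against a background of 19.0% of the 2318 undivided control TADs cut at their middle. After CTCF siRNA it was below 0 for 116 of 139. The parts were cut at edges of the CTCF siRNA list, and the undivided TADs at a place not set by contacts. The gap to the background therefore follows in part from the choice of cuts. Neighbouring control TADs with kept edges, as full boundaries, stood at -0.85 (-0.98 to -0.77, n = 156) in control cells and -0.52 (-0.61 to -0.44) after CTCF siRNA. After CTCF siRNA the parts therefore lay near the neighbouring kept TADs on this scale.

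Undivided TADs changed alike in that ratio. It was lower after CTCF siRNA for 89 of 139 pairs (64%, 55.8 to 71.5), against 70.2% of the undivided TADs cut at their middle. The median change was -0.11 (-0.19 to -0.07) for the parts and -0.17 (-0.18 to -0.15) for the undivided TADs. Kept neighbours moved the other way, with a median change of 0.30 (0.26 to 0.37).

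**Figure D4:**
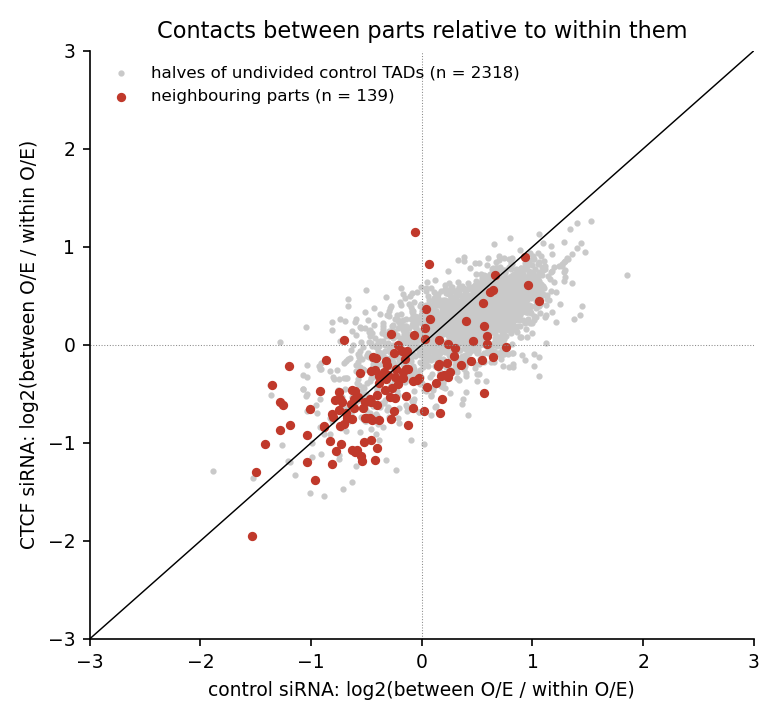
Log2 ratio of O/E between neighbouring parts to O/E within them, control siRNA (horizontal) against CTCF siRNA (vertical): red, 139 pairs of parts; grey, 2318 undivided control TADs cut at their middle; points under the black diagonal are lower after CTCF siRNA. Most red points lie left of 0 (100 of 139), where few grey points do (19.0%), and 89 of 139 lie under the diagonal.

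Contacts between the parts, not set against those within, gave a median O/E of 1.03 (0.952 to 1.1, range 0.336 to 2.95) in control cells and 1.1 (1.0 to 1.26, range 0.323 to 4.41) after CTCF siRNA. Within the parts O/E was 1.2 (1.16 to 1.27) and 1.52 (1.31 to 1.71). O/E between parts was lower after CTCF siRNA for 50 of 139 pairs (36.0%), against 61.6% of undivided TADs cut at their middle. The 95% counting interval of the ratio of the maps lay wholly below 1 for 30 pairs (21.6%, background 52.2%) and wholly above 1 for 66 (47.5%, background 27.7%). The direction of this value turned with the processing. The median log2 change was 0.14 (0.05 to 0.26) on the counts and -0.20 once each map was balanced so that all bins of a chromosome have equal totals, when 103 of 139 pairs were lower, against 80.8% of undivided TADs. The ratio of between to within kept its sign, at a change of -0.22 after balancing (undivided TADs -0.20).

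The change between parts varied with GC content. From the bottom to the top GC quintile the median log2 change was -0.97 (7 pairs), -0.19 (11), 0.09 (31), 0.32 (39) and 0.10 (51). In undivided TADs it went from -1.03 through -0.54, -0.10 and 0.24 to 0.35. By these medians the parts were lower than the undivided TADs in the top quintile and higher in the others. Coverage in the CTCF siRNA map moves with GC content as given above, and its part in these values was not tested.

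The insulation value had a lower median at inner boundaries than over all autosomal bins. The insulation value of a bin is the log2 ratio of O/E across the bin to O/E within the 400 kb on each side, so a low value marks a boundary. At the 124 inner boundaries that could be measured it had a median of -0.37 (-0.44 to -0.30) in control cells and -0.58 (-0.64 to -0.48) after CTCF siRNA, and the median change was -0.24 (-0.30 to -0.16), or -0.093 with flanks of 800 kb. It was lower after CTCF siRNA at 92 of 124 (74.2%, 65.8 to 81.1), against 47.6% of all 58614 autosomal bins with a value and 60.7% of bins inside undivided control TADs. In control cells it was below 0 at 97 of 124 (78.2%, 70.2 to 84.6), against 49.0% of all bins. The control range between quartiles was -0.64 to -0.03, which overlaps that of all bins (-0.44 to 0.36). Inner boundaries are edges of the CTCF siRNA list that lie inside a control TAD. Low values and falls there follow in part from that choice. The 400 kb flanks can also reach past an outer edge, since 46.1% of the parts were at most 400 kb. Control medians at 400 kb to the left and right were -0.17 and -0.35.

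The outer edges of the same TADs went the other way. Their median was -1.13 (-1.20 to -1.02, n = 218) in control cells and -0.68 (-0.74 to -0.63) after CTCF siRNA, a median change of 0.43 (0.37 to 0.50), and only 37 of 218 were lower. Edges kept in both lists changed in the same direction, by a median of 0.33 (0.286 to 0.368, n = 833). That interval lies just below the one of the outer edges (0.369 to 0.496). After CTCF siRNA the medians of inner (-0.58) and outer (-0.68) boundaries thus lay closer together than in control cells, and their intervals met. Outer edges were taken from the control list and inner boundaries from the CTCF siRNA list. Opposite changes at the 2 kinds of boundary therefore follow in part from the choice.

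**Figure D5:**
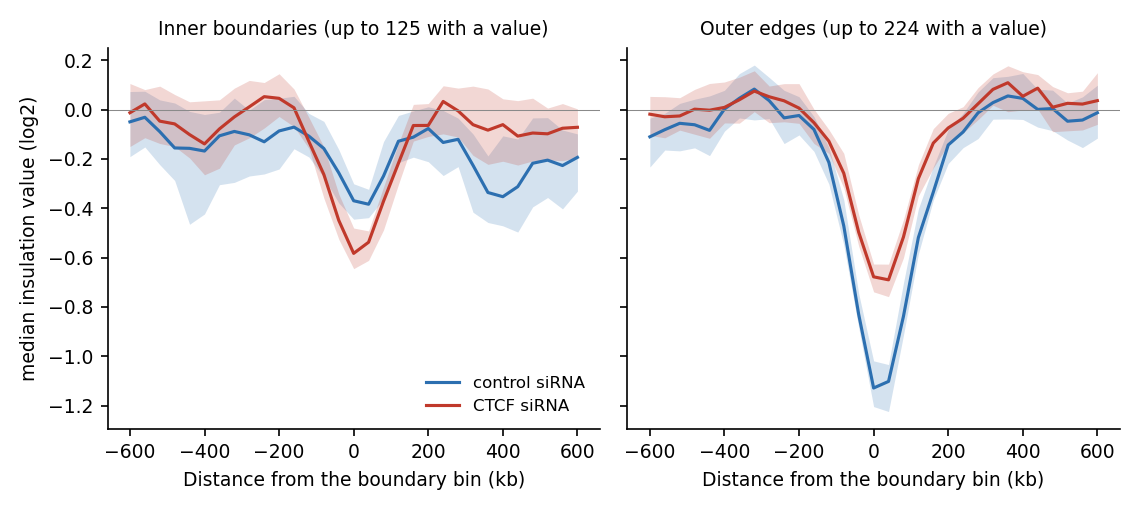
Median insulation value (log2, vertical axis) by distance from the boundary bin (kb) at inner boundaries (left) and outer edges (right) of divided control TADs, control siRNA in blue and CTCF siRNA in red, with 95% intervals of the median as bands. The median at inner boundaries goes from -0.37 to -0.58 and that at outer edges from -1.13 to -0.68.

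Local minima of insulation lay at inner boundaries more often in the CTCF siRNA map. Within 10 bins on either side, the lowest insulation value lay within 1 bin of the inner boundary for 16 of 123 in the control map (13.0%, 8.17 to 20.1), against 13.8% of all bins, and for 52 of 123 in the CTCF siRNA map (42.3%, 33.9 to 51.1), against 13.5% of all bins. In 39 of the 123 this held in the CTCF siRNA map alone, in 3 in the control map alone and in 13 in both. The CTCF siRNA TADs were called with these contacts, so a minimum there follows in part from the choice. For 68 inner boundaries neither map had its minimum there.

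In the control TAD with 4 parts, chr19:49100001-50620000, there were 84 protein-coding gene starts and a GC content of 52.5%. Its inner boundaries lay at bins over the chorionic gonadotropin and luteinising hormone beta genes (CGB3 and LHB among them), over RPL13A, a ribosomal protein gene, and over NUP62, a nuclear pore protein, with ATF5, a stress-response transcription factor. O/E between the first and next part was 0.45 (exact Poisson interval 0.38 to 0.52, 157 contacts) in control cells and 0.50 (0.48 to 0.53, 1165 contacts) after CTCF siRNA. At the RPL13A boundary it was 1.01 (0.91 to 1.1) and 1.0 (0.96 to 1.04), and at the NUP62 boundary 0.74 (0.63 to 0.87) and 0.66 (0.61 to 0.70). The intervals of the 3 ratios of the maps all hold 1, so a change in contacts between its parts was not detectable on the counts. With expected values taken over all autosomes the log2 changes at the 3 boundaries were 0.76, 0.57 and 0.39. The insulation values at the same 3 places in control cells were -1.50, -0.64 and -0.80, all below the median of inner boundaries.

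The 5 largest falls between parts by the ratio of the maps (counting error only), among pairs with at least 50 contacts expected in the control map, began with chr2:214060001-216220000. There O/E was 1.95 (1.85 to 2.05, 1442 contacts) in control cells and 0.64 (0.62 to 0.67, 1921 contacts) after CTCF siRNA, a ratio of 0.330 (0.308 to 0.354). Its inner boundary, chr2:215560001-215600000, lies over BARD1, the partner of BRCA1, and the insulation value there went from -0.03 to -1.02. The TAD also holds ABCA12, a lipid transporter, and ATIC, an enzyme of purine synthesis, with a GC content of 36.9%.

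At chr17:58180001-60340000 O/E went from 0.80 (0.73 to 0.88) to 0.37 (0.35 to 0.39) and the insulation value from 0.16 to -0.81. The boundary bin lies over INTS2, a subunit of the Integrator complex, with the start of BRIP1, a DNA helicase of the Fanconi pathway, within 1 bin, and the TAD holds TBX2, a T-box transcription factor. At chr22:18860001-19700000 O/E went from 1.38 (1.26 to 1.52) to 0.68 (0.64 to 0.71) and the insulation value from 0.39 to -0.62. That boundary lies at HIRA, a histone chaperone, and MRPL40, in the stretch commonly deleted in DiGeorge syndrome. The control insulation value was above 0 at both places.

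The fall at chr5:86660001-87980000 was from 1.32 (1.23 to 1.41) to 0.65 (0.62 to 0.68), at a boundary with no protein-coding gene over the bin and a control insulation value of 0.0081. The TAD holds CCNH, a cyclin of the transcription factor TFIIH. At chr21:22340001-26780000, a TAD of 4440 kb whose only protein-coding gene start is that of NCAM2, a neural adhesion molecule, it went from 2.06 (1.85 to 2.28) to 1.02 (0.95 to 1.1) between parts 840 kb apart. The log2 ratio of between to within hardly differed there, at 0.93 and 0.90, so contacts within these parts were lower to a like degree, and the log2 change between them was -0.48 with bins within 400 kb. All 5 falls were still falls after balancing, where the log2 changes were smaller (-0.80 for the TAD with BARD1, -0.60 for INTS2, -0.85 for HIRA, -0.49 for CCNH and -0.31 for NCAM2, against -1.60, -1.13, -1.03, -1.02 and -1.01 on the counts).

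The 3 largest rises lay in TADs with 12, 27 and 5 protein-coding gene starts. At chr2:232300001-233380000 O/E between the parts went from 0.69 (0.60 to 0.79) to 1.49 (1.42 to 1.56), a ratio of 2.15 (1.86 to 2.51). The boundary lies over COPS7B, of the COP9 signalosome, and PDE6D, a carrier of lipidated proteins, and the TAD holds NCL, which encodes nucleolin. At chr1:32620001-33540000 it went from 0.50 (0.41 to 0.60) to 0.98 (0.92 to 1.05), at a boundary over BSDC1 and near MARCKSL1, in a TAD with HDAC1, a histone deacetylase, and LCK, a T cell kinase. At chr6:167580001-168540000 it went from 0.75 (0.63 to 0.89) to 1.45 (1.36 to 1.55), at TTLL2, of the tubulin tyrosine ligase family. Balanced log2 changes were 0.26, 0.50 and 0.07, against 1.11, 0.98 and 0.95 on the counts. In each of the 3 the control insulation value was lower than that after CTCF siRNA (-1.50 and -0.93, -0.92 and -0.64, -0.64 and -0.36).

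Core matches lay within 1 bin of all 3 of these inner boundaries, 6 in all, and of none of the 4 measured boundaries among the largest falls, where 71 of all 149 inner boundaries (47.7%) held one. With so few places, nothing is read from these counts. The sequences printed here are those of the 6 matches near the inner boundaries of the 3 rises.
chr1:32879715-32879766 (reverse strand): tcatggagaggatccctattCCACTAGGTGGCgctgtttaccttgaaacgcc
chr1:32914071-32914122 (forward strand): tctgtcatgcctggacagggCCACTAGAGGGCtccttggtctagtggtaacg
chr1:32914903-32914954 (forward strand): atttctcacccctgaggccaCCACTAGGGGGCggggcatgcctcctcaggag
chr2:232665412-232665463 (forward strand): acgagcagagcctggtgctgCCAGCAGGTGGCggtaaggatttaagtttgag
chr2:232717144-232717195 (forward strand): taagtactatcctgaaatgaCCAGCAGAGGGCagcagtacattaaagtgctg
chr6:167785463-167785514 (reverse strand): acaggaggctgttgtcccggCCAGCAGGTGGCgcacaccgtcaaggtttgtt
The first match of chromosome 2 lies in an intron of COPS7B and the other 5 lie outside protein-coding genes. The regions were picked for extreme values, and GC content was 36.5 to 48.8% in the TADs of those 4 falls and 46.8 to 47.6% in those of the rises, so this is a description of 7 places.

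Genes regulated by androgen, the hormone signal that drives these cells, were followed as a list. Of its 37 genes in control TADs, 5 start in a divided one (13.5%, interval 5.91 to 28), close to the 13.0% of all genes. Of these 5, 0 lie within 1 bin of an inner boundary, where 18.9% of all genes in divided TADs lie, and so few genes do not set the list apart. FKBP5, a chaperone of the androgen receptor, starts in the left part of chr6:35220001-36380000, where O/E between the parts went from 1.01 (0.91 to 1.1) to 1.76 (1.69 to 1.83), a log2 change of 0.80 that was 0.11 after balancing.

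ACP3, prostatic acid phosphatase, lies in chr3:130700001-132140000 but beyond its parts, whose contacts went from 1.22 (1.1 to 1.32) to 0.86 (0.82 to 0.90) at a boundary over MRPL3. CAMKK2, a calcium-dependent kinase, lies in chr12:121700001-122700000, also beyond the parts, with 0.78 (0.70 to 0.86) and 1.1 (1.05 to 1.15). That change turned from 0.50 to -0.23 (log2) after balancing. ABCC4, a drug and nucleotide exporter, lies in the left part of chr13:95260001-97660000, whose parts are 440 kb apart, with 0.53 (0.43 to 0.63) and 0.62 (0.56 to 0.68). The interval of the last ratio (0.952 to 1.46) holds 1, and its log2 change of 0.23 was -0.21 with bins within 400 kb of the boundary. Among the other 3, the direction on the counts was not shared.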

How the data were processed

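Hi-C libraries of LNCaP cells, 2 with control and 4 with CTCF siRNA, were pooled by the authors into 1 contact map and 1 TAD list per condition. Per the submitters' processing notes the tools included FastQC 0.11.2, Bowtie 1.1.0, SAMtools 1.2 and Picard 1.121, with hg19. The methods name HiCUP for filtering read pairs and a directionality-index caller on 40 kb bins for TADs. The deposited values were taken to be read-pair counts per pair of bins, multiplied by per-bin factors between 9.4 and 48.12 Mb. These factors were estimated here from the same values. Dividing by these gave whole numbers for 100% (control) and 99.9996% (CTCF siRNA) of the values checked, within 0.0101 plus 0.05%. For random values the shares would be 2.45 and 2.80%. As the factors were fitted to these values, the match follows in part from the fit.

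Here, expected contacts were the mean per chromosome and distance over bins with at least 10% of the median total in both maps. Pairs of parts needed 50% of bin pairs usable, and named pairs at least 50 expected control contacts. Named were the TAD with most parts, the 5 largest falls, the 3 largest rises and the androgen list. Some items that this rule names are not reported here. Intervals were Wilson for shares, exact Poisson for O/E, conditional binomial for ratios and order statistics for medians, all at 95%. Genes were GENCODE release 44 on GRCh37. CTCF core matches of 12 bases were sought on both strands. No test was run, since the rule used the same calls and contacts. The members and lists were chosen with earlier results of these data known. Alternatives were other tolerances, filters, flanks, scalings and balancing. Scripts were tested on simulated data. Python 3.11.15, numpy 2.4.6, scipy 1.17.1, pandas 2.3.3 and matplotlib 3.10.9 were used.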

Additional observations from a re-analysis of the deposited data

How the results depend on the processing

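Of 226 recomputed values, 183 stayed within the spread or 1.5 times of the value reported, 41 moved and 2 changes that had been called turned sign. With balanced maps the median log2 change in O/E between parts was -0.20, the CTCF siRNA O/E 0.889 and the change relative to within -0.22, and 103 pairs were lower. The change for the TAD with CAMKK2 (chr12:121700001-122700000) was -0.23. Some pairs whose ratio interval holds 1 turned sign too. The change for the ABCC4 pair (0.23) was -0.21 with bins within 400 kb and -0.019 with expected values over all autosomes. With the latter, the RPL13A pair went from -0.02 to 0.57 and the NUP62 pair from -0.18 to 0.39. The RPL13A pair was also above 0 on deposited (0.06), balanced (0.17) and thinned (0.06) values. With bins within 400 kb of the inner boundary, control O/E was 0.946, the CTCF siRNA ratio of between to within -0.59 and its change -0.19. Insulation after CTCF siRNA was -0.70 with flanks of 200 kb, and its change -0.093 with flanks of 800 kb. Counting all annotated genes gave 30.9 gene starts per Mb in divided TADs, by construction. Only pairs beyond the rescaled stretch, an alternative chosen after seeing the data, gave 27 lower pairs of 98. Alternatives for the ratio of between to within and for the counts of lower pairs and boundaries were also chosen after seeing the data. Other causes were not tested. No paired analysis was possible because neither the maps nor the TAD lists hold values for single libraries. Depth limits single pairs, with a median of 361 control contacts between parts.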

Other observations

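Clustered gene families are set here against the 13.0% of all genes in control TADs that started in a divided one. Olfactory receptor genes started in divided control TADs in 6 of 346 cases (1.73%, interval 0.797 to 3.73), in 2 TADs, below that share. Keratin genes came to 0 of 55, which allows a share of up to 6.53% by the Wilson interval, and protocadherins to 0 of 62 (up to 5.83%), also below it. KLK genes, the kallikreins that include prostate-specific antigen, came to 0 of 15 (up to 20.4%), an interval that holds it. Histone genes came to 12 of 75 (16%, 9.40 to 25.9), all in 2 TADs, and HOX genes, the regulators of body axis, to 8 of 39 (20.5%, 10.8 to 35.5), all in the HOXA cluster in 1 TAD, and these intervals hold it too. Genes of a cluster share a TAD and are not independent.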
